A study of Arabidopsis thaliana and Zea mays with 12 samples.

Results

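The aquaporin genes were described in the leaves of wild-type Arabidopsis thaliana of the Col-0 accession, 3 weeks old and grown at 22 °C, the only material of this series for which gene expression values were used here. The members were the 35 rows, of 27411 genes in the deposited table, whose locus identifier belongs to the family: 13 plasma membrane intrinsic proteins (PIPs), 10 tonoplast intrinsic proteins (TIPs), 9 NOD26-like intrinsic proteins (NIPs) and 3 small basic intrinsic proteins (SIPs). All 35 identifiers were found in the table and in the annotation. Names are written in the hyphenated form used for the proteins, so that PIP2-1 is the gene also written PIP2;1, and each is given with its locus identifier where its level is described. The study maps a cytosine modification of DNA, N4-acetyldeoxycytosine (4acC), and the mRNA-seq libraries give the transcript levels of the same wild type. There were 2 wild-type mRNA-seq replicates and no second condition, so levels and the spread between the replicates are given and no test between groups was possible. Levels are FPKM, the fragments assigned to a gene per kilobase of transcript, scaled to the mapped depth of the library. The study's methods call them biological replicates.

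Aquaporins are membrane channels that let water, and in some members small solutes such as hydrogen peroxide, ammonia, boric acid or carbon dioxide, pass a membrane. PIPs sit mainly in the plasma membrane, TIPs in the membrane of the vacuole, NIPs mostly in the plasma membrane and SIPs in the endoplasmic reticulum. The pore is built around a pair of short motifs, Asn-Pro-Ala in the typical channel, that meet in the middle of the membrane. In leaves PIPs and TIPs are known for moving water between the veins, the mesophyll and the guard cells, whereas several NIPs carry boric acid or metalloids.

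The encoded motifs departed from Asn-Pro-Ala in some NIPs and in all SIPs, but in no PIP or TIP. The coding bases around the motifs are shown because the levels of the NIPs are read against them further on. Both motifs were Asn-Pro-Ala in 13 of 13 PIPs and 10 of 10 TIPs, but in 4 of 9 NIPs and 0 of 3 SIPs. Each line gives 12 coding bases on either side of the motif, 5′ to 3′ along the gene, from the TAIR10.1 assembly in RefSeq, with the motif's codons in capitals. PIP2-1 and TIP1-2 stand for the typical motif.
PIP2-1 second motif (chr3:19804158-19804190, minus strand): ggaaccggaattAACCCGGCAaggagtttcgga
TIP1-2 second motif (chr3:9722914-9722946, minus strand): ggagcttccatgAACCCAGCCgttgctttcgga
NIP1-1 second motif (chr4:10421902-10421934, minus strand): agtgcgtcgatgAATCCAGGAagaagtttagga
NIP1-2 second motif (chr4:10367970-10368002, plus strand): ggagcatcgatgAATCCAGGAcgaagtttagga
NIP2-1 second motif (chr2:14514791-14514823, minus strand): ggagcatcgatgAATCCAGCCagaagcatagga
NIP3-1 second motif (chr1:11451662-11451694, plus strand): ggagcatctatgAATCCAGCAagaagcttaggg
NIP4-1 second motif (chr5:15047583-15047615, plus strand): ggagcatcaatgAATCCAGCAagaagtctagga
NIP4-2 second motif (chr5:15051318-15051350, plus strand): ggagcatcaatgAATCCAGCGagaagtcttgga
NIP5-1 first motif (chr4:6432357-6432389, minus strand): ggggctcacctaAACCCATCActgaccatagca
NIP5-1 second motif (chr4:6431683-6431715, minus strand): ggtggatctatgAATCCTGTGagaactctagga
NIP6-1 second motif (chr1:30350790-30350822, minus strand): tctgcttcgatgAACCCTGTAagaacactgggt
NIP7-1 first motif (chr3:1842426-1842458, minus strand): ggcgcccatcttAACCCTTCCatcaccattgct
SIP1-1 first motif (chr3:1073804-1073836, minus strand): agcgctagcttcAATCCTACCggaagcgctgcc
SIP1-2 first motif (chr5:6056174-6056206, minus strand): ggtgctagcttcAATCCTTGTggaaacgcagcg
SIP2-1 first motif (chr3:21079420-21079452, minus strand): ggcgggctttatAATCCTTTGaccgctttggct
The third codon of the motif differed from alanine in 8 members. It encoded glycine in the second motif of NIP1-1 and NIP1-2, valine in the second motif of NIP5-1 and NIP6-1, and serine in the first motif of NIP5-1 and NIP7-1. In the SIPs it was the first motif that departed, with threonine in SIP1-1, cysteine in SIP1-2 and leucine in SIP2-1.

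The FPKM values turned out to be whole reads divided by one length per gene and by one total per library, 93100036 in replicate 1 and 105573623 in replicate 2. All 22540 genes listed above 0 came out as whole reads in both replicates within 0.0001 of a read, which gives the counting error of every value. Where several lengths gave whole reads, the shortest that held the coding sequence was taken, so the read numbers are the fewest the values allow. The sources do not say whether a counted unit is a single read or a read pair, and if both mates were counted the units are not independent and the counting intervals given below are too narrow. The 35 aquaporins held 1042877 reads in replicate 1 and 1314592 reads in replicate 2.

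Marker genes were set beside the tissue, which the labels give as leaves and the methods as plants. Their lists were chosen with earlier results of these data known, so they are not an independent check. The 4 photosynthesis markers, among them the Rubisco small subunit gene RBCS1A and the light-harvesting gene LHCB1.3, had means between 383 and 49649 FPKM. Of the markers of other organs, 1 of 6 for roots exceeded 1 FPKM (PYK10, at 7.02 and 7.98 FPKM). So did 0 of 5 for pollen, 0 of 6 for seeds and 0 of 4 for flowers, where 47.7% of all genes did. All 210 chloroplast and mitochondrial genes of the table were listed at 0, so a value of 0 is reported below only as listed at 0.

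Of the 35 aquaporins, 25 had a mean above 1 FPKM (71.4%), against 47.7% of all genes in the table. The 25 comprised 13 of 13 PIPs, 5 of 10 TIPs, 4 of 9 NIPs and 3 of 3 SIPs. Above 100 FPKM stood 10 members, 6 PIPs and 4 TIPs, where 4.04% of all genes reached that level. Listed at 0 in both replicates were 4 members, TIP1-3, TIP3-2, NIP4-1 and NIP4-2, against 17.8% of all genes. The other 6 members lay between 0 and 1 FPKM. The family median was 17.1 FPKM and that of all genes was 0.823 FPKM. By subfamily, the medians were 68.8 FPKM for PIPs, 0.997 FPKM for TIPs, 0.359 FPKM for NIPs and 17.1 FPKM for SIPs. The TIP median is the midpoint of a gap between TIP2-3 (0.0577 FPKM) and TIP4-1 (1.94 FPKM), and by the mean TIPs stood first with 639 FPKM against 250 FPKM for PIPs. The TIPs thus held the highest members of the family together with members near or at 0, whereas the PIPs were all well above 1 FPKM.

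**Figure D1:**
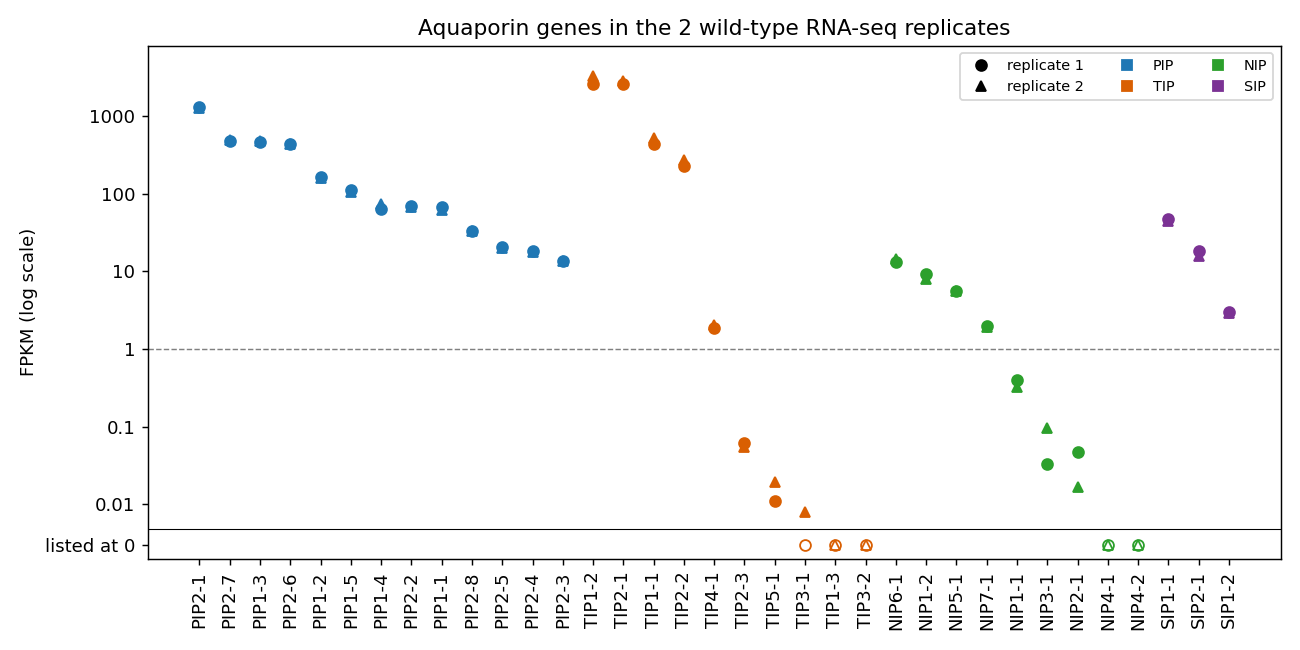
FPKM (log axis) of each of the 35 aquaporin genes in replicate 1 (circles) and replicate 2 (triangles), coloured by subfamily, with open symbols for values listed at 0 and a dashed line at 1 FPKM. All 13 PIPs lie above 13 FPKM, while the TIPs run from 2924 FPKM on average for TIP1-2 down to values listed at 0.

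The family took 0.922% of the summed FPKM of all genes in replicate 1 and 1.06% in replicate 2. TIPs made up 63.4% and 67.6% of the family's sum in replicates 1 and 2, and PIPs 35.5% and 31.5%. NIPs contributed 0.331% and 0.299%, and SIPs 0.749% and 0.617%. When reads rather than FPKM were summed, which weights long transcripts more, TIPs held 60.3% and 64.6%. Each subfamily was led by a few genes. TIP1-2 accounted for 43.8% and 47.4% of the TIP sum and TIP2-1 for 44.9% and 41.2%. PIP2-1 accounted for 40.6% and 39.6% of the PIP sum, NIP6-1 for 42.8% and 47.8% of the NIP sum, and SIP1-1 for 69.0% and 70.4% of the SIP sum.

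**Figure D2:**
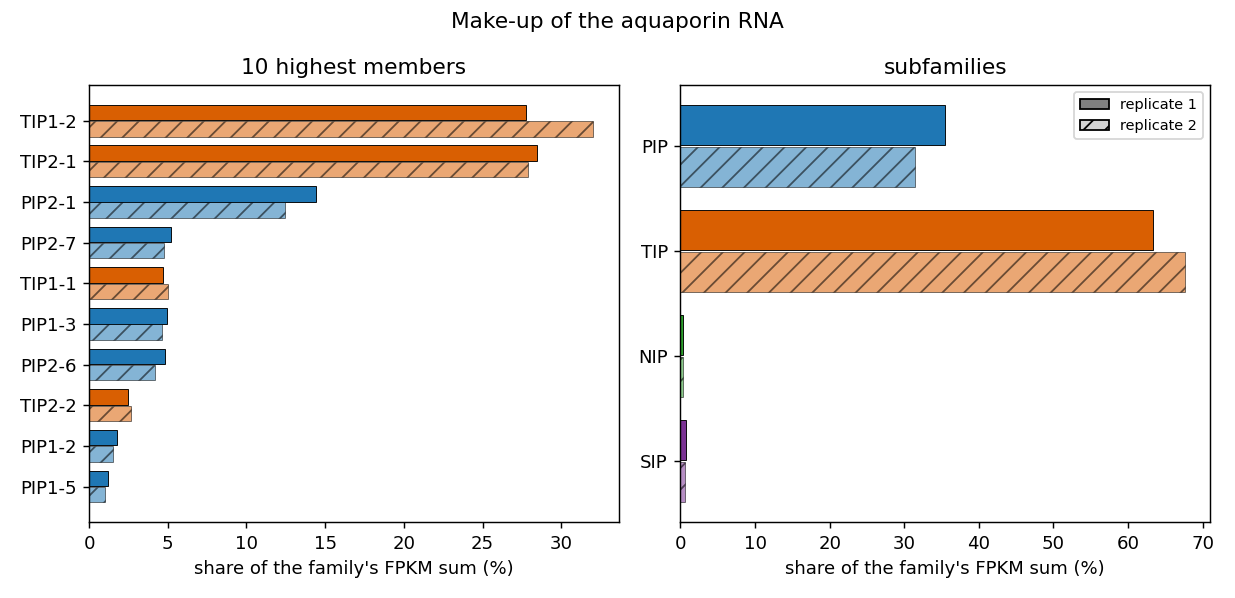
Share of the family's summed FPKM, in percent, for the 10 highest members (left) and for the 4 subfamilies (right), with solid bars for replicate 1 and hatched bars for replicate 2. TIP1-2, TIP2-1 and PIP2-1 are the longest bars in both replicates, and the TIP bars together reach 63.4% and 67.6%.

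The vacuolar TIPs held the top of the family. TIP1-2 (AT3G26520), a water channel of the vacuole, was measured at 2556 FPKM in replicate 1 and 3292 FPKM in replicate 2 (2924 ± 521, SD, n = 2), rank 48 of all genes. TIP2-1 (AT3G16240), also called delta-TIP and able to conduct ammonia, had 2617 and 2864 FPKM (2741 ± 175, SD, n = 2), rank 57. The order of TIP1-2 and TIP2-1 differed between the replicates and their ranges overlapped, so they were not separated. TIP1-1 (AT2G36830), gamma-TIP, a channel for water and hydrogen peroxide, gave 431 and 516 FPKM. TIP2-2 (AT4G17340), best known from roots, gave 229 and 274 FPKM. TIP4-1 (AT2G25810), likewise known mainly from roots, reached only 1.85 and 2.02 FPKM, from 201 and 249 reads. Between TIP1-2 and TIP4-1 the means thus spanned a factor of 1509.

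The remaining 5 TIPs were below 0.1 FPKM. TIP2-3 (AT5G47450), a further root TIP, had 0.0613 and 0.0541 FPKM, which were 6 reads in each replicate. TIP5-1 (AT3G47440), a pollen TIP, had 1 and 2 reads. TIP3-1 (AT1G73190), alpha-TIP of the seed protein storage vacuole, had 0 reads in replicate 1 and 1 read in replicate 2. Its seed partner TIP3-2 (AT1G17810) and the pollen gene TIP1-3 (AT4G01470) were listed at 0 in both. Single reads of this kind cannot be told from 0 at the depth of these libraries, where 1 read of TIP3-1 was worth 0.00803 FPKM in replicate 2. Outside the family, the 3 genes listed for tonoplast proton pumps, a short list chosen by hand, were all above 1 FPKM, where 47.7% of all genes were. AVP1, the vacuolar pyrophosphatase, had 90.4 and 92.3 FPKM, while the V-ATPase subunit genes VHA-a3 and VHA-a2 had 17.8 and 18.6 FPKM and 6.06 and 5.57 FPKM. The 4 highest TIPs all stood above these 3 listed genes.

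Among the plasma membrane channels the PIP2 group was spread more widely than the PIP1 group. The 5 PIP1 genes lay between 64.9 and 467 FPKM (median 110) and the 8 PIP2 genes between 13.5 and 1304 FPKM (median 50.9). PIP2-1 (AT3G53420), a water channel of veins and guard cells that also passes hydrogen peroxide, was measured at 1327 and 1280 FPKM (1304 ± 32.6, SD, n = 2). PIP2-7 (AT4G35100) gave 481 and 492 FPKM, and PIP2-6 (AT2G39010) gave 442 and 431 FPKM, both being water channels. PIP1-3 (AT1G01620) led the PIP1 group with 457 and 477 FPKM. PIP1 proteins reach the plasma membrane largely through assembly with PIP2 partners. PIP1-2 (AT2G45960), which has been tied to water and carbon dioxide conductance of the leaf, had 164 and 158 FPKM. PIP1-5 (AT4G23400) had 113 and 107 FPKM.

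The lower PIPs came in close steps. PIP1-4 (AT4G00430) had 63.4 and 74.2 FPKM, PIP2-2 (AT2G37170) 69.7 and 67.3 FPKM, and PIP1-1 (AT3G61430) 67.7 and 62.1 FPKM. The ranges of PIP1-4 and PIP2-2 overlapped and their order differed between the replicates, so they were not separated. The ranges of PIP2-2 and PIP1-1 also overlapped, although PIP2-2 was the higher of them within each replicate. PIP2-8 (AT2G16850) had 33.3 and 33.1 FPKM and PIP2-5 (AT3G54820) 20.7 and 20.1 FPKM. PIP2-4 (AT5G60660), known chiefly from roots, had 18.2 and 17.9 FPKM. PIP2-3 (AT2G37180) was the lowest PIP at 13.4 and 13.6 FPKM. Of 5 aquaporins listed for roots, which does not cover every member described here as acting in roots, 3 exceeded 1 FPKM (TIP2-2, PIP2-4 and TIP4-1). Of the seed aquaporins 0 of 2 did, and of those of pollen or anther 1 of 5, where 47.7% of all genes did, and lists this short are given as counts only. The root list was uneven, since TIP2-2 was at 252 FPKM on average while TIP2-3 and NIP2-1 were below 0.1 FPKM.

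No NIP exceeded 15 FPKM, and 4 of 9 were above 1 FPKM. NIP6-1 (AT1G80760), a boric acid channel of nodes and young leaves, was the highest with 13.0 and 14.7 FPKM. NIP1-2 (AT4G18910), which transports aluminium malate in roots, had 9.35 and 7.99 FPKM. NIP5-1 (AT4G10380), the boric acid channel of root uptake, had 5.66 FPKM in both replicates. NIP7-1 (AT3G06100), a boric acid channel described in anthers, had 1.95 and 1.94 FPKM and was the single member of the pollen or anther list above 1 FPKM. The partner exporters of boron were lower than NIP6-1 and NIP5-1, with 2 of 4 above 1 FPKM, close to the 47.7% of all genes. BOR1 had 1.34 and 1.39 FPKM, BOR3 had 1.17 and 1.14 FPKM, BOR2 had 0.194 and 0.209 FPKM and BOR4 was listed at 0.

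The other NIPs were below 1 FPKM. NIP1-1 (AT4G19030), a channel through which arsenite enters roots, had 43 and 40 reads (0.394 and 0.323 FPKM). NIP2-1 (AT2G34390), a lactic acid channel induced by low oxygen, had 5 and 2 reads. NIP3-1 (AT1G31885) had 3 and 10 reads. The pollen genes NIP4-1 (AT5G37810) and NIP4-2 (AT5G37820) were listed at 0 in both replicates.

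Set beside the motifs printed above, the NIP levels fell into separate ranges. The 5 NIPs with a departure from Asn-Pro-Ala, namely NIP1-1, NIP1-2, NIP5-1, NIP6-1 and NIP7-1, had means between 0.359 and 13.8 FPKM, 4 of them above 1 FPKM. The 4 NIPs with both motifs intact, NIP2-1, NIP3-1, NIP4-1 and NIP4-2, had means between 0 and 0.0653 FPKM. This grouping was made after the levels were seen, the genes within it are related by descent, and it was given no test. Over the whole family, 18 of 27 members with both motifs intact and 7 of 8 with a departure exceeded 1 FPKM, while the median was 33.2 FPKM with both motifs intact and 7.16 FPKM with a departure.

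The SIPs of the endoplasmic reticulum were all above 1 FPKM. SIP1-1 (AT3G04090) had 47.6 and 44.6 FPKM, SIP2-1 (AT3G56950) 18.3 and 15.9 FPKM, and SIP1-2 (AT5G18290) 3.04 and 2.90 FPKM. Their levels did not overlap with each other in either replicate. The median SIP stood above the median NIP and below the median PIP.

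Close relatives differed in level over a wide range, as seen in the 12 pairs in which each gene was the other's nearest member by coding sequence. The identity of coding sequences had a median of 69.8% between members of 1 subfamily (162 pairs) and 55.2% between members of different subfamilies (433 pairs). The highest identity was between PIP2-2 and PIP2-3, at 94.8%. These genes lie within 5 kb of each other on chromosome 2 in opposite orientation, and PIP2-2 was 5.19-fold and 4.94-fold higher than PIP2-3 in replicates 1 and 2. They were the only 2 members to share identical stretches of 150 bases, the read length, and 93 of the 1196 such stretches of PIP2-2 also occurred in PIP2-3. A single read from these stretches does not tell the 2 genes apart, so the levels of both are uncertain. The last 120 coding bases of both genes are shown, with the 10 bases that differ in capitals.
PIP2-2 (chr2:15613624-15613743, minus strand): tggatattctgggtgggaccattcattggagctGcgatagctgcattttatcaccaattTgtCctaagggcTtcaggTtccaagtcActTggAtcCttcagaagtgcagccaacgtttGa
PIP2-3 (chr2:15618818-15618937, plus strand): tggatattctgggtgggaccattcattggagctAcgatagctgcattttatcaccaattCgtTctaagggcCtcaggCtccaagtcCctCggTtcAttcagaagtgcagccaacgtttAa

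The widest gap within these pairs was between TIP2-2 and TIP2-3, whose coding sequences were 81.5% identical. TIP2-2 was 3738-fold higher in replicate 1 and 5065-fold higher in replicate 2, the size of the ratio resting on the 6 reads of TIP2-3 in each. No stretch of 150 bases was shared between them. The last 120 coding bases differ at 37 positions, which are in capitals.
TIP2-2 (chr4:9700131-9700250, plus strand): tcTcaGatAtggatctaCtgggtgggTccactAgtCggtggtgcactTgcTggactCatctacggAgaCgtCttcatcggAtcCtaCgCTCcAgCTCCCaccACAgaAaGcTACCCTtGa
TIP2-3 (chr5:19248509-19248628, minus strand): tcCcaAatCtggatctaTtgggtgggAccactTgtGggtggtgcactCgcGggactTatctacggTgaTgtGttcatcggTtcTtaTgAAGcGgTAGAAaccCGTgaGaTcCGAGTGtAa

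The other pairs with both genes above 0 in each replicate held their direction. NIP1-2 was 23.7-fold and 24.7-fold higher than NIP1-1 (85.0% identity). PIP2-6 was 21.4-fold higher than PIP2-5 in both replicates (77.4%), SIP1-1 was 15.7-fold and 15.4-fold higher than SIP1-2 (75.6%), and PIP2-7 was 14.5-fold and 14.9-fold higher than PIP2-8 (84.6%). Smaller gaps separated PIP1-3 from PIP1-4 (7.21-fold and 6.43-fold, 85.2%), TIP1-2 from TIP1-1 (5.93-fold and 6.38-fold, 81.5%), NIP6-1 from NIP5-1 (2.30-fold and 2.59-fold, 66.1%) and PIP1-2 from PIP1-1 (2.42-fold and 2.55-fold, 87.6%). NIP4-1 and NIP4-2, 88.0% identical and likewise within 5 kb of each other, were both listed at 0. TIP3-1 and TIP3-2 (78.7%) differed by a single read.

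**Figure D3:**
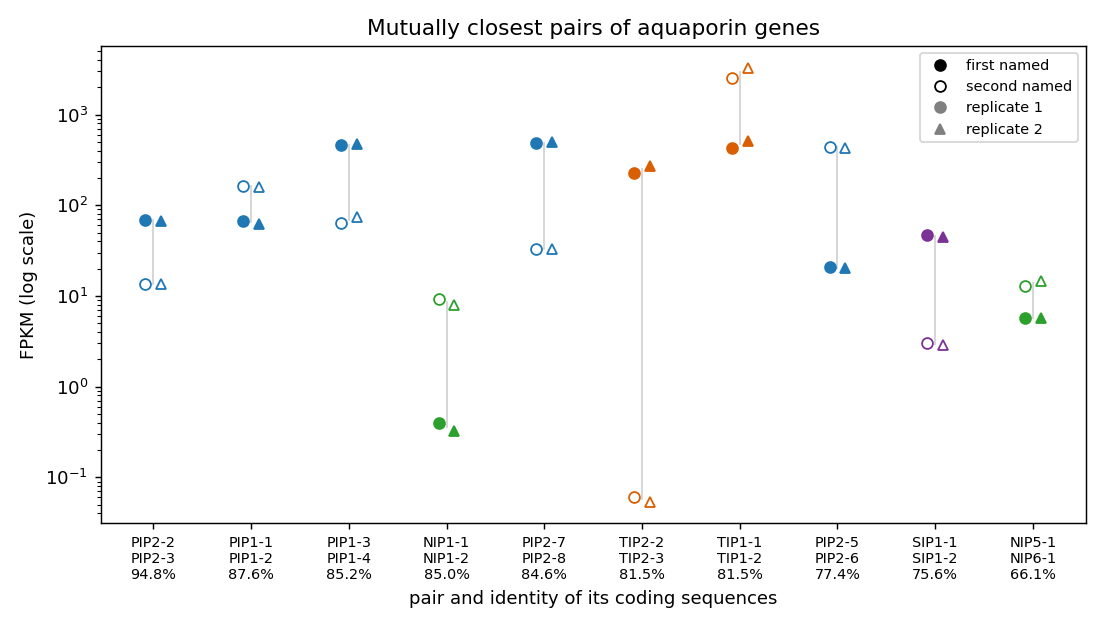
FPKM (log axis) of both genes of the 10 mutually closest pairs (each gene is the other's nearest family member by coding sequence) with values above 0 in both replicates, ordered from the left by the identity of their coding sequences. Filled symbols are the first named gene, open symbols the second, circles replicate 1 and triangles replicate 2. The distance between partners is largest for TIP2-2 and TIP2-3 and does not follow the order of identity.

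The subfamilies also differed in gene build. All 13 PIPs had 4 coding exons, TIPs 1 to 3, NIPs 4 or 5 and SIPs 3. The GC content of the coding sequence was between 49.0% and 52.1% in PIPs, between 45.9% and 54.7% in TIPs and between 42.7% and 52.3% in NIPs. Across genes, Spearman's rho between mean FPKM and coding GC content was 0.55 over all 35 members, 0.85 over the 10 TIPs, 0.77 over the 9 NIPs and -0.09 over the 13 PIPs. These are descriptions over related genes of the same libraries and not over independent samples.

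The replicates differed little for most members above 1 FPKM. On log2(FPKM + 1), 0 of 35 members were 1.5-fold or more apart, and 0.383% of all genes were. The members below 1 FPKM were too low to reach 1.5-fold on this scale, so the count bears only on the 25 members above 1 FPKM. Among the 25 members above 1 FPKM, 10 were higher in replicate 2, as were 31.7% of all genes above 1 FPKM. The exact 95% binomial interval of the ratio covers counting error only. It lay above 1 for 8 of the 25 members (11.5% of all genes above 1 FPKM) and below 1 for 9 (38.7% of all genes above 1 FPKM). The interval narrows as reads rise, and the 25 members ran from 201 and 249 reads (TIP4-1) to 285757 and 417394 reads (TIP1-2). The shares of all genes were not matched for read number, so no difference between the family and all genes is read from them. Among TIPs, 5 of 5 were higher in replicate 2, and the interval lay above 1 for 4 of them. TIP1-2 was 1.29-fold higher in replicate 2 (interval 1.28 to 1.29), TIP1-1 and TIP2-2 were 1.20-fold and 1.19-fold higher, and TIP2-1 was 1.09-fold higher. Of the 13 PIPs, 4 were higher in replicate 2, led by PIP1-4 at 1.17-fold. The median ratio of all genes above 1 FPKM was 0.942. The summed FPKM of the 4 photosynthesis markers was also higher in replicate 2, at 126175 against 104655 in replicate 1, and the part of this difference in the TIP values was not tested.

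**Figure D4:**
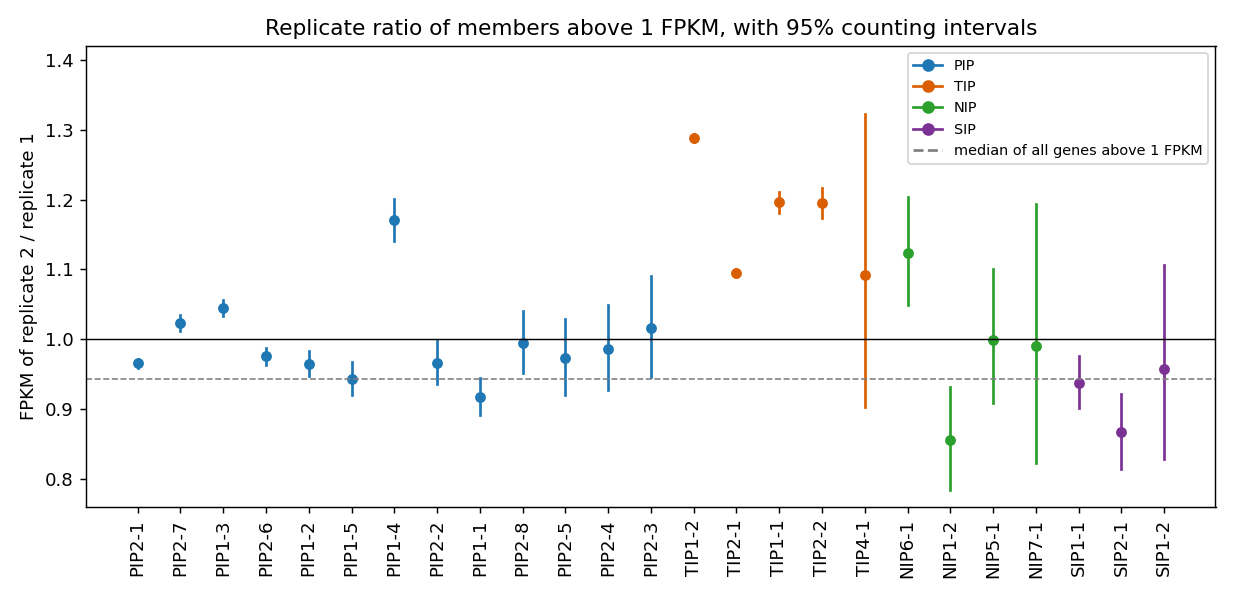
Ratio of the FPKM in replicate 2 to that in replicate 1 for the 25 aquaporins above 1 FPKM, with 95% counting intervals as vertical lines, a solid line at 1 and a dashed line at the median of all genes above 1 FPKM (0.942). All 5 TIPs lie above 1, while 4 of the 13 PIPs do.

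The order of the members was stable in its broad steps and not in its fine ones. Among the 31 members above 0, 12 had the same rank in both replicates and the largest shift was 3 ranks. Of the 30 neighbouring pairs in the order of means, 10 had overlapping ranges. The steps from TIP2-1 to PIP2-1 and from PIP2-1 to PIP2-7 (2.68-fold on average) held in both replicates, while TIP1-1 moved from rank 7 in replicate 1 to rank 4 in replicate 2, past PIP2-6, PIP1-3 and PIP2-7, which kept their order among themselves.

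Of 11 genes for the trafficking and modification of aquaporins, 8 exceeded 1 FPKM, against 47.7% of all genes. The highest were SYP121, a plasma membrane SNARE protein that takes part in PIP delivery (34.5 and 37.5 FPKM), and VAP27-1, a protein of contact sites between endoplasmic reticulum and plasma membrane (35.2 ± 0.262 FPKM, SD, n = 2). The ubiquitin ligase genes RMA1, RMA2 and RMA3 had 6.59 and 5.18 FPKM, 10.9 and 10.7 FPKM, and 5.35 and 5.33 FPKM. The kinase gene OST1, which acts in abscisic acid signalling of guard cells, had 1.39 and 1.64 FPKM. TSPO, a stress-induced membrane protein known to remove PIP2-7, was below 1 FPKM at 0.175 and 0.191 FPKM. PATROL1 (0.574 and 0.616 FPKM) was also below 1 FPKM, and SIRK1 (0.980 and 0.990 FPKM) lay just under it.

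A number of loci share bases with other genes. In TAIR10.1, 8 members overlapped an annotated gene on the opposite strand, and the sources do not say whether strand was used in the counting. TIP2-1 overlapped AT3G16250 (64.8 and 69.7 FPKM) by 120 bases, and SIP2-1 overlapped AT3G56940 (472 and 498 FPKM) by 147 bases. The value of SIP2-1, which was far below that of this neighbour, is therefore uncertain. Among the NIPs and the low TIPs, overlaps touched NIP2-1, NIP6-1, TIP3-1, TIP3-2 and TIP5-1, and among the SIPs also SIP1-2. Some overlaps were with long noncoding RNA genes that had no expression value. These took in 1432 bases of NIP2-1, 564 of TIP3-2, 445 of TIP2-1, 209 of SIP1-2 and 203 of SIP2-1.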

How the data were processed

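Values came from 1 deposited table of gene expression in the 2 wild-type mRNA-seq replicates. The other 10 of the 12 samples of the series, which concern 4acC immunoprecipitation and its controls, were not analysed here. Per the submitters' notes the authors mapped reads with TopHat2 2.0.9 (Bowtie2 is also listed) and deposited FPKM values from Cufflinks 2.1.1. The paper's methods name TAIR10 as the genome. The FPKM values were used as deposited. Whole reads were recovered from them as described in the report, tested on simulated data, and the library totals found matched the number of reads that the study lists as mapped to a single place. Ratio intervals are exact Clopper-Pearson intervals at 95%, without molecular identifiers. Fold changes between replicates used log2(FPKM + 1), which understates the change of low genes. Coordinates, exons and coding sequences are those of TAIR10.1 in RefSeq, since the table holds no coordinates, and identities are from global alignments (Biopython 1.88). The tools were numpy 2.4.6, scipy 1.17.1 and pandas 2.3.3 under Python 3.11.15. Members, gene lists and the rule to name every member were chosen with earlier results of these data known. Alternatives were other pseudocounts and thresholds, the mean for the median, a filter on low values, reads for FPKM and each replicate alone.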

Additional observations from a re-analysis of the deposited data

How the results depend on the processing

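With 2 replicates of 1 condition, the spread is that of 2 values, not of a population. No paired analysis was possible because all values came from 1 condition. Under the alternatives, 53 values kept within the spread between replicates or within 1.5 times their count, 10 moved and 1 count of replicate differences rose. Where a value was the mean of the 2 replicates, dropping 1 replicate could not move it beyond that spread. Such values were bound to be counted as kept and say nothing about stability. The mean in place of the median gave 250 FPKM for PIPs, 639 FPKM for TIPs, 3.40 FPKM for NIPs and 22.0 FPKM for SIPs, so that TIPs stood first by the mean and PIPs by the median. With only members above 0.1 FPKM, the medians were 473 FPKM for TIPs and 5.66 FPKM for NIPs. The PIP median was 69.7 FPKM and 74.2 FPKM in the single replicates. Without the 10 highest genes of the table the family's share rose from 0.989% to 1.27%. By FPKM times exon length, PIP2-1 held 41.5% of the PIP sum (40.1% by FPKM) and SIP1-1 held 67.4% of the SIP sum (69.7% by FPKM). With a pseudocount of 0.01 FPKM, 3 members were 1.5-fold or more apart between replicates, TIP3-1 (0.85 on the log2 scale), NIP2-1 (-1.11) and NIP3-1 (1.32), as were 11.6% of all genes. These 3 members had 10 or fewer reads per replicate, which limits their values.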
